A study of Mus musculus with 8 samples.

Results

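Macrophage identity genes were examined in bone marrow-derived macrophages (BMDM) treated with sphingosine d18:1, So(d18:1). The 9 genes were taken by name: the CSF1 receptor Csf1r, the lineage transcription factors Spi1, Maf, Cebpa and Cebpb, and the core markers Adgre1, Cd68, Lyz2 and Cd14. They are 9 of 55357 genes in the count table, and all 9 are among the 14514 genes with enough counts to be tested. The rule names the genes and sets no threshold on a measured value, though earlier results of these data were known when the list was drawn up.

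Every library came from wild-type C57BL/6J mice, and no allele or transgene separated the groups. Marrow cells of the femur and tibia were grown with macrophage colony-stimulating factor (M-CSF), the ligand of the CSF1 receptor, which all 8 cultures therefore received. The 4 So(d18:1) libraries came from cells given 2 μM So(d18:1) for 6 h, and the 4 control libraries from cells given its solvent, methanol, for 6 h. The study asked which pathways So(d18:1) changes in macrophages. Its text places the treatment under an inflammatory stimulus, which the sample labels do not name. The study's methods list its purchased wild-type C57BL/6J mice as male, without tying sex to these cultures. The age of the marrow donors, and whether marrow was pooled, are not given in the sources used here.

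Macrophages form from myeloid progenitors under a small set of transcription factors. PU.1, encoded by Spi1, opens myeloid enhancers together with C/EBP factors, and M-CSF signalling through the CSF1 receptor keeps the cells alive. MAF factors restrain proliferation in mature macrophages. Surface and lysosomal proteins such as F4/80 (Adgre1), CD68, lysozyme and CD14 are the usual means of recognising the cells.

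Promoter sequences of 300 bases were read from RefSeq (GRCm38.p6) for 4 of the 9 genes: Cebpa, Cebpb, Cd68 and Lyz2. They run from 250 bases before the start of the RefSeq gene to 50 bases after it. The promoters of Cd68, which changed, and of Lyz2, the most abundant of the 9 transcripts, are shown because both genes encode lysosomal or granule proteins of macrophages. Capitals mark GAGGAA, a core of PU.1 sites, and TTNCNNAA, a loose C/EBP pattern, on either strand. The Cd68 promoter lies at chr11:69666121-69666420 and that of Lyz2 at chr10:117282223-117282522, both on the minus strand.
Cd68: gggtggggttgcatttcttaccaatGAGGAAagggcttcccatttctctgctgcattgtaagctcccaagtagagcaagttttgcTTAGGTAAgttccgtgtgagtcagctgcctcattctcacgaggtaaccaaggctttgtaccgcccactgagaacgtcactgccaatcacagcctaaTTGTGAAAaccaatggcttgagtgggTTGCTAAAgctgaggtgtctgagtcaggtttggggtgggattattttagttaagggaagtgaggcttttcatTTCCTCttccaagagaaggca
Lyz2: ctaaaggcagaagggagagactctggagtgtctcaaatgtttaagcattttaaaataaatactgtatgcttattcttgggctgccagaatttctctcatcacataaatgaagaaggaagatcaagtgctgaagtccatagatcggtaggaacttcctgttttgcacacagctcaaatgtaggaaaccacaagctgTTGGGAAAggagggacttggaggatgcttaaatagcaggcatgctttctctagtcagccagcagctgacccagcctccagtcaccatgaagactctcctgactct

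The Cd68 promoter held GAGGAA at -225 and 29 and TTNCNNAA at -165, -69 and -43. Positions are counted from the first base of the RefSeq gene to the first base of the match. For Cd68 and Lyz2 that start differs from the one in the gene coordinates given below, which come from GENCODE. The Lyz2 promoter held TTNCNNAA at -55 and no GAGGAA. These letters are common: GAGGAA occurred in 28.3% of 32851 RefSeq promoters of this length and TTNCNNAA in 40.7%. The stricter C/EBP palindrome TTGCGCAA, found in 0.183% of all promoters, was in none of the 4. It is one of the forms that TTNCNNAA allows. TGCTGA, the MAF core, was in 19.5% of all promoters and in that of Lyz2 at -125. The promoters of Cebpa and Cebpb held none of these patterns. A match of letters is no evidence of binding, and no binding was measured here.

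Of the 9 genes, Maf and Cd68 fell with So(d18:1), and none rose. Maf, a factor of mature macrophages, was lower by 14.9%, and Cd68, a lysosomal membrane protein, by 13.9%. The receptor gene Csf1r, the lineage factor Spi1 and the markers Adgre1 and Cd14 differed by less than 5% and missed the test. Cebpa and Lyz2 were lower on average and Cebpb higher on average, each with an adjusted p above 0.05. Values are CPM, counts relative to the library total, scaled by edgeR's TMM factors, and the test is edgeR's quasi-likelihood F test with Benjamini-Hochberg adjustment over all 14514 genes at 0.05.

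Read against the background, 2 of 9 genes (22.2%) were called where 8.94% of all tested genes were. Both were lower, where 5.07% of all genes were called lower, and 0 were called higher, where 3.87% of all genes were. No member was higher at an unadjusted p under 0.05 in edgeR's quasi-likelihood test either, and DESeq2, limma-voom and edgeR's exact test also called 0 higher. The groups did not overlap for 2 of the 9 genes, against 15.0% of all genes. Under the rule in the study's methods, an unadjusted p under 0.05 with a fold change of at least 1.5, edgeR called 0 of the 9 genes and 3.89% of all genes. With 9 genes, 1 gene more or fewer moves such a share a long way. The shares were also not matched for expression level or precision. Standard errors of the log2 fold change ran from 0.0398 to 0.141 among the 9 genes. All but that of Cebpb, the highest, were below the median over all tested genes, 0.0868. A small change is therefore called more easily among most of the 9 than among all genes. In direction, 6 of the 9 were lower and 3 higher, and their median log2 fold change was -0.06, beside 0.00 over all genes. The median size of the change without its sign was 0.14, beside 0.11. In bulk RNA, fewer cells that carry a transcript and less of it per cell cannot be told apart.

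**Figure D1:**
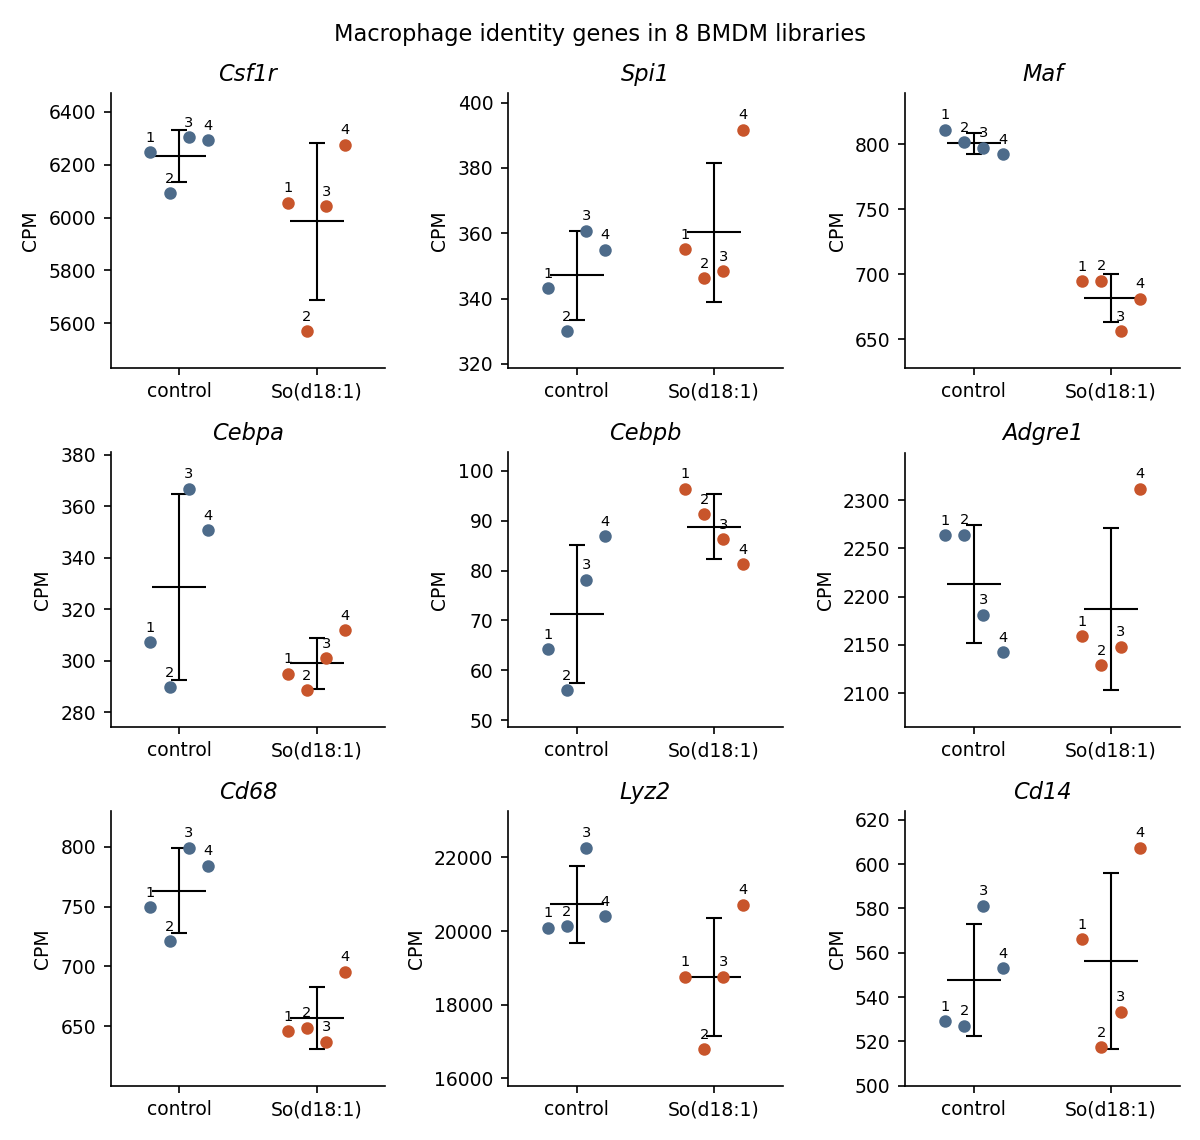
CPM of the 9 macrophage identity genes in each library, with its replicate number beside the point, for control (blue) and So(d18:1) (orange) cells. Black dashes and bars are the mean and SD of 4 libraries, each axis has its own range that does not start at 0, and only for Maf and Cd68 do the groups not overlap.

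Csf1r (ENSMUSG00000024621) encodes the receptor tyrosine kinase for CSF1 and IL-34. Its level was 6248, 6091, 6305 and 6292 CPM in control replicates 1 to 4 and 6056, 5570, 6043 and 6276 CPM in So(d18:1) replicates 1 to 4. The groups overlapped, since So(d18:1) replicate 4 lay among the controls, and So(d18:1) replicate 2 was the lowest of all. The means were 6234 ± 98.2 and 5986 ± 298 CPM (SD, n = 4). The log2 fold change was -0.06 ± 0.04 (SE) with an adjusted p of 0.464 (edgeR), and the 95% interval of the difference ran from -9.91% to 2.34%. Hmgxb3, on the opposite strand, overlaps Csf1r over 873 exonic bases and was at 24.9 ± 3.12 CPM in control cells.

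The 2 ligands of the receptor are Csf1 and Il34. Csf1 had a mean of 4.92 ± 0.437 CPM in the controls and 4.52 ± 0.587 CPM after So(d18:1) (SD, n = 4; log2 fold change -0.13 ± 0.14, adjusted p = 0.618, edgeR). Il34 had 2 counts in control replicate 1, 1 count in So(d18:1) replicate 4 and none in the other libraries, so no difference was detectable at this depth. M-CSF, the product of Csf1, was supplied in the medium.

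Spi1 (ENSMUSG00000002111, chromosome 2, 91082390 to 91115756, plus strand, GRCm38) encodes PU.1, the master regulator of the myeloid lineage. Its values were 343, 330, 361 and 355 CPM in control and 355, 346, 348 and 392 CPM in So(d18:1) libraries. The ranges overlapped, and So(d18:1) replicate 4 was the highest of the 8. The log2 fold change was 0.05 ± 0.05 (SE, adjusted p = 0.536, edgeR), with an interval of the difference from -2.99% to 11.1%.

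Maf (ENSMUSG00000055435, chromosome 8, 115682942 to 115707794, minus strand) encodes c-MAF, a basic leucine zipper factor of mature and anti-inflammatory macrophages. It was at 811, 802, 797 and 793 CPM in control and 695, 695, 656 and 681 CPM in So(d18:1) libraries. Every So(d18:1) library lay below every control, and the controls were close to each other. Their coefficient of variation was 0.988%, little above the 0.730% that counting alone gives. The means were 801 ± 7.91 and 682 ± 18.3 CPM (SD, n = 4), and the log2 fold change was -0.23 ± 0.04 (SE) with an adjusted p of 0.00063 (edgeR). The fall was 14.9% with an interval from -19.6% to -9.84%. The exact two-sided permutation test of 4 against 4 gave 0.0286, the smallest p it allows. Gm15655, on the opposite strand, overlaps Maf over 440 exonic bases, and 4.64% of the 50-base words of Maf also occur in another gene, so a small part of its counts is uncertain. Gm15655 itself was listed at 0 in all 8 libraries.

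Cebpa (ENSMUSG00000034957, chromosome 7, 35119293 to 35121928, plus strand) encodes C/EBPα, which drives progenitors into the myeloid lineage. Its values were 307, 290, 367 and 351 CPM in control and 295, 288, 301 and 312 CPM in So(d18:1) libraries. The So(d18:1) libraries lay together, while the controls spread so far that 2 of them fell within the So(d18:1) range. The log2 fold change was -0.14 ± 0.06 (SE, adjusted p = 0.211, edgeR). Without control replicate 2, the lowest control, it was -0.19 and passed (adjusted p = 0.028), and without control replicate 3 it was -0.08. Gm45091 overlaps Cebpa over 51 exonic bases and was at 0.719 ± 0.156 CPM in control cells.

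Cebpb (ENSMUSG00000056501, chromosome 2, 167688915 to 167690418, plus strand) encodes C/EBPβ, a factor of monocyte survival and of inflammatory gene expression. It was at 64.3, 56.0, 78.2 and 86.9 CPM in control and 96.4, 91.3, 86.2 and 81.2 CPM in So(d18:1) libraries. Control replicate 4 lay within the So(d18:1) range, and the control coefficient of variation of 19.4% was the widest among the 9 genes. The means were 71.3 ± 13.8 and 88.8 ± 6.53 CPM (SD, n = 4; log2 fold change 0.31 ± 0.14, SE, adjusted p = 0.24, edgeR). The interval of the difference, from -1.39% to 56.7%, leaves room for no change and for a large one.

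Counts on Cebpb are uncertain. Its single exon overlaps Tmem189 on the opposite strand over 312 bases, and 18.1% of its 50-base words also occur in Tmem189. Whether the counting used strand is not given in the sources used here. Tmem189 itself rose, from 96.3 ± 6.85 to 118 ± 4.75 CPM (SD, n = 4; log2 fold change 0.30, adjusted p = 0.000718, edgeR). The part of Tmem189 reads in the Cebpb value was not tested.

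The ratio of Cebpb to Cebpa counts within a library does not depend on scaling. It was 0.209, 0.193, 0.213 and 0.248 in control and 0.327, 0.316, 0.287 and 0.261 in So(d18:1) libraries. Every So(d18:1) library was above every control, with a difference of 0.46 on the log2 scale. The exact two-sided permutation p was 0.0286, the smallest possible for 4 against 4, and 0.114 after adjustment over the 4 ratios tested, so it missed the threshold. The overlap with Tmem189 touches this ratio as well.

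The other C/EBP genes gave a mixed picture. Cebpd, which encodes an inflammation-responsive member of the family, was at 32.6, 30.7, 35.5 and 36.7 CPM in control and 42.6, 40.7, 37.3 and 39.3 CPM in So(d18:1) libraries. Its groups did not overlap, and it rose (log2 fold change 0.24 ± 0.07, SE, adjusted p = 0.025, edgeR). Spidr, on the opposite strand, shares 13.7% of the 50-base words of Cebpd. Cebpg was at 163 ± 5.61 and 158 ± 9.01 CPM (SD, n = 4; log2 fold change -0.05, adjusted p = 0.576, edgeR).

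**Figure D2:**
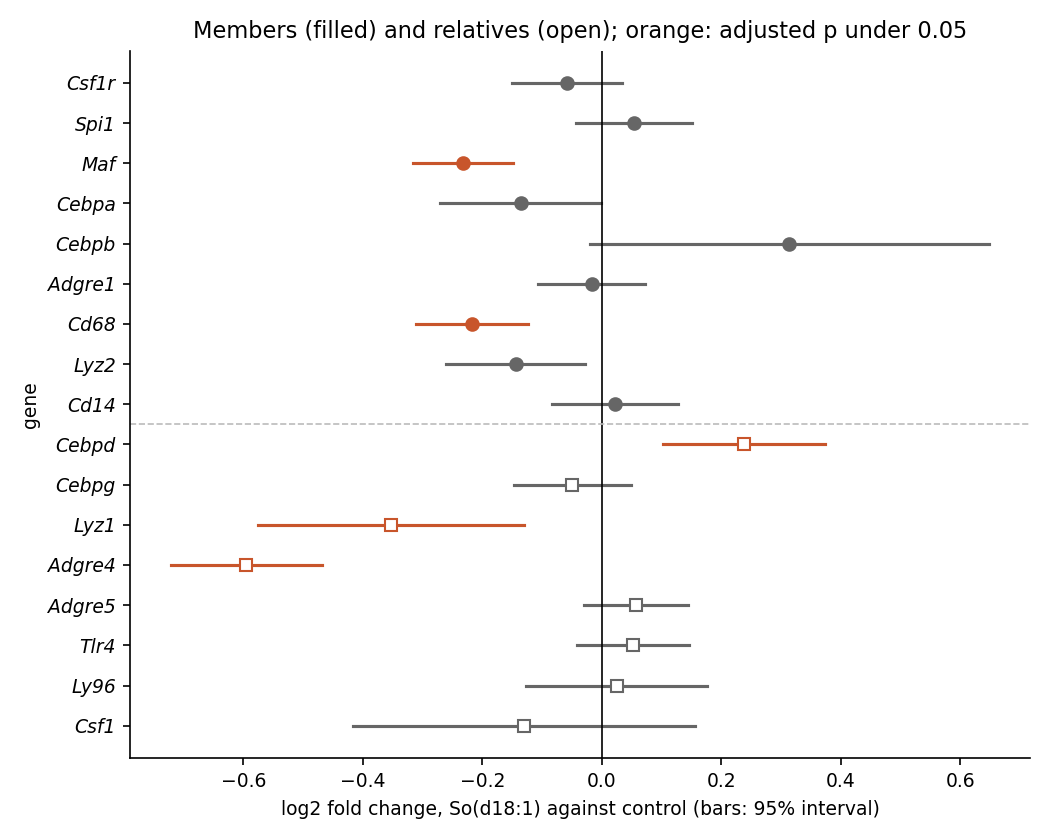
Log2 fold changes of So(d18:1) against control cells with 95% intervals from edgeR, for the 9 genes (filled circles) and 8 related genes (open squares), in orange where the adjusted p is under 0.05. Maf (-0.23) and Cd68 (-0.22) lie left of 0 with short intervals, and Cebpb (0.31) has the longest interval among the 9 genes.

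Adgre1 (ENSMUSG00000004730, chromosome 17, 57358691 to 57483527, plus strand) encodes F4/80, the adhesion receptor by which mouse macrophages are usually identified. Its values were 2264, 2264, 2181 and 2143 CPM in control and 2159, 2129, 2148 and 2312 CPM in So(d18:1) libraries. The control range lay within that of the So(d18:1) libraries. The log2 fold change was -0.02 ± 0.04 (SE, adjusted p = 0.861, edgeR), and the interval ran from -7.09% to 5.12%.

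Its relatives had differing values. Adgre4, a family member on myeloid cells, fell from 56.8 ± 2.30 to 37.7 ± 3.13 CPM (SD, n = 4) with no overlap between groups (log2 fold change -0.59, adjusted p = 1.25e-06, edgeR). Adgre5, which encodes CD97, was at 134 ± 3.6 and 139 ± 3.27 CPM (log2 fold change 0.06, adjusted p = 0.455, edgeR), and shares 16.5% of its 50-base words with Ddx39 on the opposite strand.

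Cd68 (ENSMUSG00000018774, chromosome 11, 69664213 to 69666153, minus strand) encodes macrosialin, a heavily glycosylated membrane protein of lysosomes and endosomes. It was at 749, 721, 799 and 784 CPM in control and 646, 649, 637 and 695 CPM in So(d18:1) libraries. The highest So(d18:1) library, replicate 4, was below the lowest control, replicate 2. The means were 763 ± 35.2 and 657 ± 26.2 CPM (SD, n = 4), and the log2 fold change was -0.22 ± 0.04 (SE) with an adjusted p of 0.00349 (edgeR). The fall of 13.9% had an interval from -19.4% to -8.17%, and the exact permutation p was 0.0286. No exon of another gene overlaps Cd68, and no 50-base word of it occurs in another gene.

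Lyz2 (ENSMUSG00000069516, chromosome 10, 117277331 to 117282321, minus strand) encodes lysozyme M, a secreted and granule enzyme that cuts bacterial cell walls. It took 2.07% of all counts in control and 1.88% in So(d18:1) libraries, the largest share of any gene in the control libraries. Its values were 20085, 20133, 22264 and 20408 CPM in control and 18752, 16779, 18761 and 20717 CPM in So(d18:1) libraries. Of the So(d18:1) libraries, 3 lay below every control, and replicate 4 was above 3 of them. The log2 fold change was -0.14 ± 0.06 (SE, adjusted p = 0.118, edgeR). It was -0.20 and passed without So(d18:1) replicate 4 (adjusted p = 0.0185), and it was -0.09 without So(d18:1) replicate 2.

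Lyz1, the neighbouring lysozyme gene, shares 15.4% of the 50-base words of Lyz2, so reads can be split or lost between the pair. It was listed at 10.3 ± 1.19 and 8.03 ± 0.422 CPM (SD, n = 4) and fell (log2 fold change -0.35, adjusted p = 0.0422, edgeR). The Lyz2 to Cd68 ratio within a library ran from 26.02 to 27.9 in control and from 25.9 to 29.8 in So(d18:1) cells, a difference of 0.07 on the log2 scale (exact permutation p = 0.229, adjusted 0.457). Neutrophils also carry lysozyme. Of 14 neutrophil markers, 13 were lower on average in the So(d18:1) libraries, while Mmp8 was higher. The summed levels of these markers were 1598 to 1766 CPM in So(d18:1) libraries against 1880 to 2564 CPM in control. The part of neutrophils in the Lyz2 value was not tested.

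Cd14 (ENSMUSG00000051439) encodes the co-receptor that passes lipopolysaccharide to TLR4 and MD-2. It was at 529, 527, 581 and 553 CPM in control and 566, 517, 533 and 607 CPM in So(d18:1) libraries, with wide overlap. The log2 fold change was 0.02 ± 0.05 (SE, adjusted p = 0.842, edgeR), with an interval from -5.57% to 9.24%, and it was -0.02 without So(d18:1) replicate 4. Tlr4 was at 152 ± 8.32 and 158 ± 2.86 CPM and Ly96, which encodes MD-2, at 18.0 ± 0.665 and 18.3 ± 0.768 CPM (SD, n = 4). Both missed the test, with log2 fold changes of 0.05 and 0.02. The Cd14 to Tlr4 ratio differed by -0.03 on the log2 scale (exact permutation p = 0.714, adjusted 0.8).

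Levels per length were set side by side as RPKM, the CPM divided by the length of the merged exons in kilobases, since a longer transcript yields more reads. In control cells Lyz2 led at 15747 ± 788 RPKM (SD, n = 4), the highest of all tested genes, followed by Csf1r at 1080 ± 17.0, Adgre1 at 683 ± 18.8 and Cd68 at 607 ± 28.0 RPKM. Cd14 was at 316 ± 14.6 RPKM. The factors were lower, with Spi1 at 129 ± 5.06, Cebpa at 125 ± 13.7, Maf at 97.2 ± 0.960 and Cebpb at 47.4 ± 9.20 RPKM. Even Cebpb was well above the median of tested genes, 4.70 RPKM. The range from Cebpb to Lyz2 was 332-fold.

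All 9 genes kept their place in this order in the So(d18:1) cells. Of the 8 neighbouring pairs, only Spi1 and Cebpa overlapped in range in control cells, so their levels did not differ beyond their spread there. In So(d18:1) cells 0 of the 8 pairs overlapped. The means of Maf and Cebpb were 97.2 and 47.4 RPKM in control and 82.7 ± 2.22 and 59.0 ± 4.34 RPKM in So(d18:1) cells. The Cebpb difference missed the test (adjusted p = 0.24, edgeR), and its counts are uncertain as given above. This pair was named after its values were seen, and the distance between the pair was not tested. Of the relatives, Cebpd was at 9.04 ± 0.729 and Lyz1 at 8.14 ± 0.944 RPKM in control cells.

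**Figure D3:**
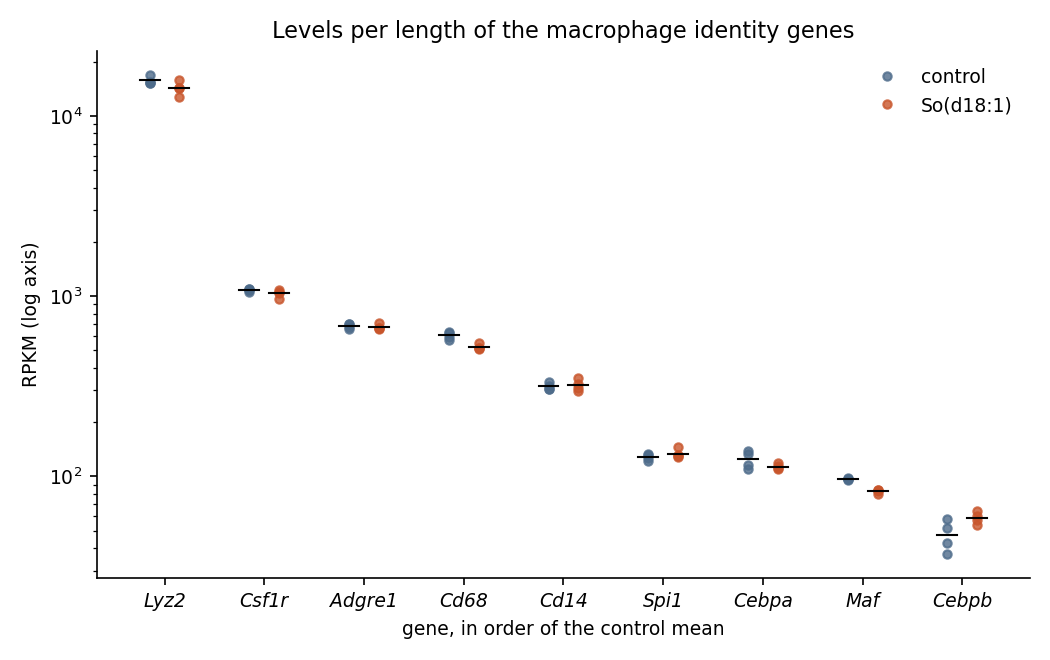
RPKM on a log axis of the 9 genes in each of 4 control (blue) and 4 So(d18:1) (orange) libraries, in order of the control mean, with black lines at the group means. Lyz2 stands above the rest, the transcription factors are lowest, and the order is shared by both groups.

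For many of the 9 genes, the same libraries of a group were the high or the low ones. Control replicates 3 and 4 were both above control replicates 1 and 2 for 7 of the 9 genes, and both below them for Maf and Adgre1. Over all tested genes, 51.4% split in this way in either direction. So(d18:1) replicate 4 was the highest of its group for 7 genes, against 26.9% of all genes, and the lowest for Cebpb. So(d18:1) replicate 2 was the lowest for 6 genes, against 24.9% of all genes. These patterns were chosen after the values were seen and carry no test, and the labels name no batch that divides the libraries. Total counts per library lay between 17748397 and 26088609, TMM factors between 0.989 and 1.01, and mitochondrial counts between 1.92% and 2.18%.

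**Figure D4:**
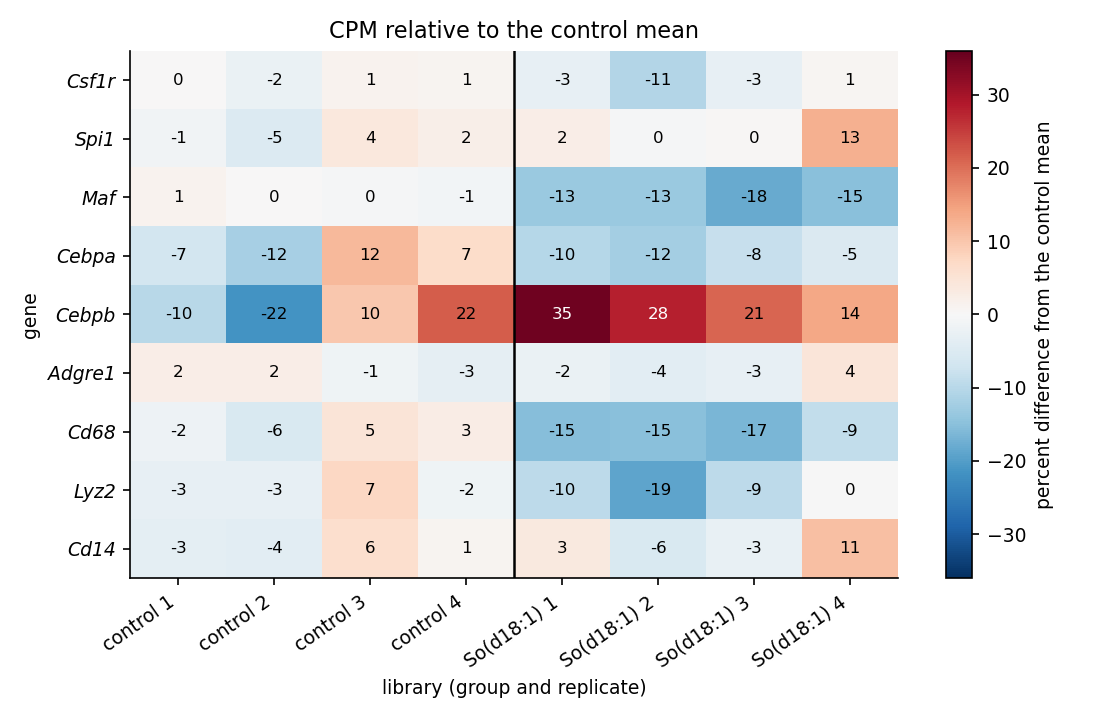
Percent difference of each library's CPM from the control mean, for 9 genes (rows) in 4 control and 4 So(d18:1) libraries (columns). Maf and Cd68 are negative in all 4 So(d18:1) columns, and Cebpb is positive in all 4 but ranges from negative to positive among the controls.

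Other genes of the same programmes were taken from 4 lists. Of their 112 tested genes, 32 were called (21 lower, 11 higher), beside 8.94% of all genes. These shares were not matched for expression level or precision either. The median log2 fold change over the 112 genes was -0.04. Genes are named for the smallest p in their list.

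CSF1 receptor ligands, adaptors and signalling genes had 2 of 22 called (9.09%), close to the 8.94% of all tested genes. Their median log2 fold change was 0.00. Lyn, a Src-family kinase, fell from 275 ± 8.29 to 241 ± 4.89 CPM (adjusted p = 0.00428, edgeR). Plcg2, a phospholipase downstream of immune receptors, rose from 143 ± 8.03 to 163 ± 1.63 CPM (adjusted p = 0.00956).

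Among other macrophage transcription factors, 13 of 39 were called (7 lower, 6 higher), and the median log2 fold change was -0.03. Runx1, which acts in blood stem cell and myeloid development, rose from 129 ± 5.76 to 180 ± 7.68 CPM (log2 fold change 0.48, adjusted p = 5.61e-07, edgeR). Runx3 rose from 2.92 to 6.33 CPM and Klf2, a factor that restrains myeloid activation, from 21.8 to 28.6 CPM. Pparg, the lipid-sensing nuclear receptor, fell from 11.1 ± 1.03 to 5.50 ± 0.841 CPM (log2 fold change -1.01, adjusted p = 9.82e-06).

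Other surface and lysosome markers had 13 of 33 genes called, 10 of them lower, with a median log2 fold change of -0.11. Mertk, a receptor for the uptake of dying cells, fell from 210 ± 6.13 to 162 ± 6.23 CPM (log2 fold change -0.38, adjusted p = 6.2e-06, edgeR). Siglec1, the sialic acid receptor CD169, fell from 820 ± 39.2 to 635 ± 51.0 CPM (-0.37, adjusted p = 0.000106). Csf2rb, the shared beta chain of the GM-CSF, IL-3 and IL-5 receptors, rose from 765 ± 19.1 to 1073 ± 40.3 CPM (0.49, adjusted p = 1.41e-07). Adgre4, described above, completes the 4 with the smallest p.

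In the CD14 and TLR4 receptor complex list, 4 of 18 genes were called (3 lower, 1 higher), with a median log2 fold change of -0.01. Rab7b, a GTPase that sends TLR4 to lysosomes, fell from 118 ± 14.3 to 91.5 ± 4.399 CPM (-0.36, adjusted p = 0.00683, edgeR). Cd180 and its partner Ly86, which encode a TLR4-like receptor complex, fell from 74.8 to 65.1 CPM (adjusted p = 0.00804) and from 265 to 236 CPM (adjusted p = 0.0175). Irak2, a kinase of Toll-like receptor signalling, rose from 99.5 to 111 CPM (adjusted p = 0.0332). Ly86 was called in 15 of 17 alternatives to the processing and Irak2 in 12 of 17.

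**Figure D5:**
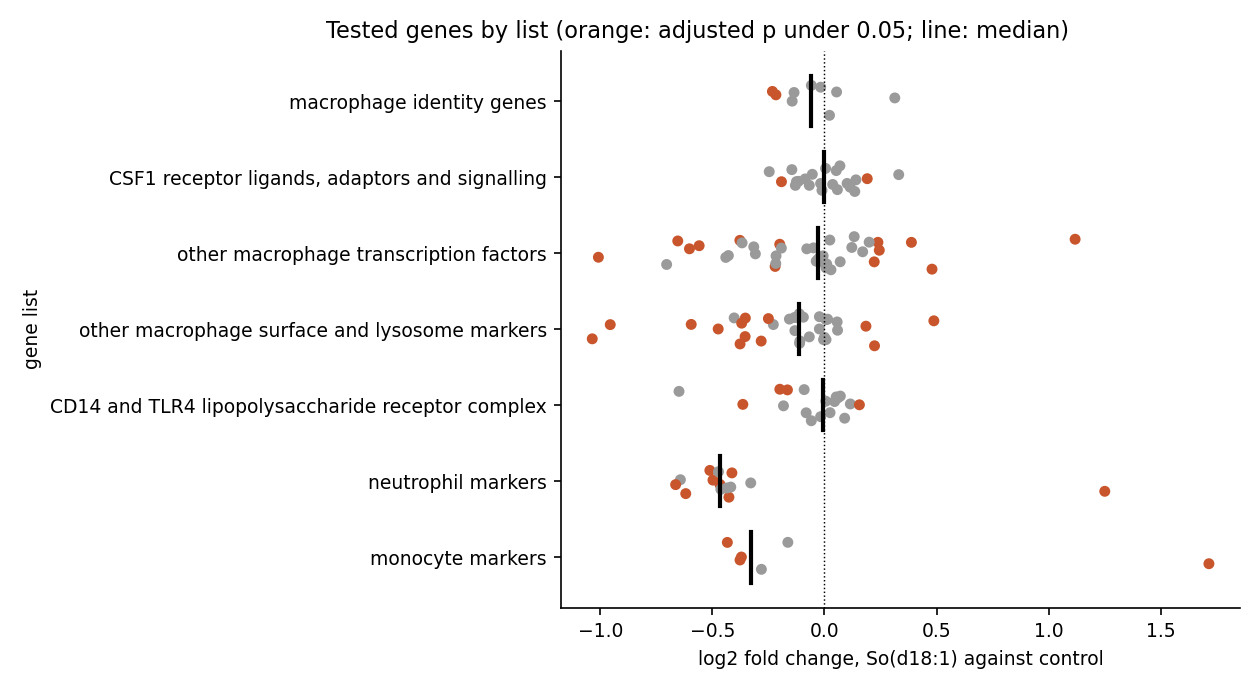
Log2 fold change of each tested gene, So(d18:1) against control, for the macrophage identity genes, 4 lists of related genes and the neutrophil and monocyte lists, in orange where edgeR's adjusted p is under 0.05, with a black line at each list's median (vertical spread within a list is for display). The median of the identity genes is -0.06 and that of the neutrophil markers -0.46.

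The genes most like Maf and Cd68 were sought among 5556 genes with a mean log2 CPM of at least 5, by the root-mean-square difference of log2 CPM, each centred on its own mean, over the 8 libraries. For Maf it was Sirpa, the inhibitory receptor for CD47, at a difference of 0.03, where Maf itself varied by 0.12 about its mean. Sirpa averaged 1526 CPM in the controls and 1283 CPM after So(d18:1) (log2 fold change -0.25). For Cd68 it was Trem2, a lipid-binding receptor of macrophages and microglia, at 0.02, where Cd68 varied by 0.12. Trem2 was at 488 and 427 CPM (log2 fold change -0.20). Since these genes were found by their likeness over both groups, their fold changes are given as a description.

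Marker lists of 10 other cell types were measured in the same libraries. The 9 identity genes summed to between 31214 and 33734 CPM in control and between 27065 and 32073 CPM in So(d18:1) libraries. Most of each sum came from Lyz2, whose mean was 20723 CPM among the controls and 18752 CPM after treatment. Lyz2 missed the test (adjusted p = 0.118, edgeR), and neutrophils also carry lysozyme, so the sum does not measure macrophages alone. Of the neutrophil markers, 8 of 14 were called (7 lower, 1 higher), beside 8.94% of all tested genes. In the mean, 13 of 14 were lower, with a median log2 fold change of -0.46. S100a8, a granulocyte and monocyte alarmin, fell from 297 ± 40.0 to 208 ± 13.6 CPM (adjusted p = 0.00588, edgeR), while Mmp8, neutrophil collagenase, rose from 59.2 ± 7.43 to 141 ± 12.9 CPM (adjusted p = 1.25e-05). Ly6g, a defining surface marker of mouse neutrophils, was at 2.17 ± 0.443 and 1.38 ± 0.304 CPM and missed the test. These 3 genes were chosen after their values were seen.

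Of the monocyte markers, 5 of 6 were lower on average, with a median log2 fold change of -0.33. Of the 6 tested, 4 were called (3 lower), beside 8.94% of all tested genes. The riser was Vcan, which encodes the matrix proteoglycan versican, which went from 44.8 ± 9.14 to 147 ± 6.75 CPM (SD, n = 4; adjusted p = 0.00034, edgeR). Their sums were 1293 to 1602 CPM in control and 1312 to 1442 CPM in So(d18:1) libraries, most of it from Ccr2, the CCL2 receptor, at 1276 and 1139 CPM (log2 fold change -0.16, adjusted p = 0.163, edgeR). Both genes were named after their values were seen. Called genes, beside 8.94% of all tested genes, numbered 2 of 7 for osteoclasts and 1 of 2 for T and NK cells. They numbered 1 of 6 for B cells and 1 of 5 for erythroid cells and megakaryocytes. Only 2 of the 10 listed T and NK cell genes were tested. In the same order, DESeq2 called 3, 1, 0 and 2 genes, limma-voom 1, 0, 1 and 1, and edgeR's exact test 3, 1, 1 and 1. The erythroid and megakaryocyte gene called by edgeR's quasi-likelihood test was Pf4, a chemokine that macrophages also express. Named after its value was seen, it rose by 0.76 on the log2 scale. By edgeR's quasi-likelihood test, 0 of 6 dendritic cell, 0 of 1 mast cell, 0 of 6 fibroblast and 0 of 5 endothelial genes were called, and each of these lists had 1 gene at an unadjusted p under 0.05. DESeq2 and limma-voom also called 0 in these 4 lists, and edgeR's exact test called 1 gene, in the fibroblast list. Summed levels in control cells reached 9.96 CPM for dendritic cell, 3.88 CPM for T and NK cell and 12.4 CPM for fibroblast markers. The part of other cells in the values of the 9 genes was not tested.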

How the data were processed

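RNA of mouse BMDM was sequenced as poly(A) libraries, 4 control and 4 So(d18:1). Per the labels, the authors' processing notes name Trim Galore 0.6.7, HISAT2 2.2.1, featureCounts 2.0.1 and mm10. The deposited values are whole-number read counts per Ensembl gene, not normalized, and the deposited gene length, given beside them, equals the merged exon length of GENCODE vM21 for 9 of 9 genes. Strandedness and the treatment of reads matching several places are not given in the sources used here, so overlapping genes and copies are marked as uncertain. All 8 columns were matched to libraries by name. Symbols were found for 52081 of 55357 identifiers, and those without one held 0.169% to 0.325% of the counts.

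Counts were filtered with filterByExpr, which left 14514 genes, scaled by TMM and tested with edgeR 4.0.16 (R 4.3.3, limma 3.58.1) by the robust quasi-likelihood F test, with all 8 libraries and no covariate, and Benjamini-Hochberg adjustment over all tested genes. Standard errors were derived from F and the fold change. CPM use TMM-scaled totals, and log2 CPM a prior count of 2. The depth of 17748397 to 26088609 counts makes counting error small beside the spread between libraries for all 9 genes except Maf in control cells. The study describes 4 biologically independent samples per group, while the labels do not say whether they came from separate mice or cultures. The edgeR p-values set the difference between groups against the spread between these samples. An exact test of 4 against 4 cannot go below 0.0286.

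The members and the gene lists were chosen with earlier results of these data known. The lists were 4 lists of related genes and 10 lists of markers of other cell types. Named genes were the 9 members, 9 relatives whatever their values, up to 4 called genes of smallest p per related list, and for each called member the gene of most similar pattern. Ratios of counts within a library were compared by two-sided exact permutation tests, adjusted over 4 ratios, of which 3 are reported here. Promoters came from the RefSeq table (GRCm38.p6).

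The processing was varied by scaling with DESeq2's size factors, the upper quartile or library totals alone, by no filter or a minimum of 10 counts per library, and by the replicate block, DESeq2 1.42.0, limma-voom, edgeR's exact test, the study's call rule and each library left out in turn. The fit was also tested on simulated data. Figures were drawn with matplotlib 3.10.9 (Python 3.11.15).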

Additional observations from a re-analysis of the deposited data

Results flagged for a closer look

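In 2 of 26 groups of 4 libraries examined, 1 library stood apart from the others by Dixon's criterion, where chance gives about 1 group in 20, or 1.3 groups here. Adgre1 was highest in So(d18:1) replicate 4, at 11.17 log2 CPM against 11.06 to 11.08 in the other 3, a gap of 0.832 of the group's range, just past the critical value for 4 samples. Lyz2 was highest in control replicate 3, at 14.44 log2 CPM against 14.29 to 14.32 in the other 3, a gap of 0.845 of the range.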

How the results depend on the processing

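Maf and Cd68 were called in 17 of 17 alternatives each, with log2 fold changes from -0.24 to -0.21 for Maf (highest adjusted p 0.00457) and from -0.24 to -0.19 for Cd68 (highest adjusted p 0.0191). Csf1r, Spi1, Cebpb and Adgre1 kept their direction and missed the test in all 17. Cebpb came near the threshold, with an adjusted p of 0.0526 in limma-voom and 0.0549 in edgeR without control replicate 4. Its log2 fold change ran from 0.213 to 0.425 with 1 library left out. Leaving out 1 library each time gave log2 fold changes from -0.191 to -0.0777 for Cebpa (called without control replicate 2, adjusted p = 0.028), from -0.195 to -0.0936 for Lyz2 (called without So(d18:1) replicate 4) and from -0.0225 to 0.0564 for Cd14, whose sign turned without So(d18:1) replicate 4. Without a filter on low counts Lyz2 was called at -0.14 (adjusted p = 0.0176). The cause of these shifts was not tested. The log2 differences of the ratios, with 1 library left out, ran from -0.0761 to 0.0114 for Cd14 to Tlr4, from 0.41 to 0.53 for Cebpb to Cebpa and from 0.05 to 0.12 for Lyz2 to Cd68. The sign of the Cd14 to Tlr4 ratio turned to 0.0100 without control replicate 4 and to 0.0114 without So(d18:1) replicate 2. Exact tests of 3 against 4 cannot go below 0.0571. The number of the 9 genes called was 2 or 3 with 1 library left out, and that of all genes 815 to 1370 beside 1298, with 815 without So(d18:1) replicate 2. Under the study's call rule, 564 of all genes, 8 of the 112 related genes and 0 of the 9 genes passed, since that rule needs a fold change of 1.5.

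Deviations of same-numbered libraries of the groups had correlations from -0.00351 to 0.1 over all tested genes. Only number 2 correlated best with its own number. The numbers were not taken as pairs, though weak correlations over all genes cannot show that the libraries were unpaired. With the replicate block, 1784 genes in all were called, beside 1298 without it, and 42 related genes, beside 32. Of the 9 genes 2 were called, and the block changed no call among the 9. With 4 pairs, the exact test of a ratio cannot go below 0.125.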
